A study of Mus musculus with 2 samples.

Results

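Mitosis is driven by cyclin-dependent kinase 1 bound to its cyclins, which condenses the chromosomes, builds the spindle and lets kinetochores capture microtubules. The spindle checkpoint delays separation of the sister chromatids until the kinetochores are attached, and the anaphase-promoting complex then destroys cyclin B and securin so that the cell can divide. Many of the genes concerned are transcribed late in the cell cycle, through CCAAT boxes and an element called the cell cycle genes homology region (CHR) near their start sites. Mouse embryonic stem (ES) cells divide rapidly, with short gap phases.

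The genes described here are a list of 50 genes of the mitotic spindle, the kinetochore, the spindle checkpoint, chromosome condensation and cytokinesis, named by symbol. A member counted as measured where a gene probe's RefSeq accession, with the version dropped, matched its mouse symbol. That held for 38 of the 50, each with 1 probe, among 10137 genes named on the arrays in the same way. Aurka, Aurkb, Spc24, Cenpf, Kif4, Kif11, Espl1, Pttg1, Smc2, Smc4, Ncapg and Top2a were not analysed here. The members were ordered into 8 groups by role. The members, these groups and the other gene lists used below were chosen with earlier results of these data known.

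RNA abundance was measured on 2 two-colour Agilent arrays. EB5 mouse ES cells, which grow without feeder cells, received siRNA named siKlf4 in the labels together with the plasmid pCAGEGFP-IP, were cultured for 24 h, and were then selected for a further 24 h in puromycin. Their RNA (Cy3) was hybridised against Universal Mouse Reference RNA (Cy5), a pool from 11 mouse cell lines whose origins include embryo, liver, kidney, skin, testis and blood cells. Both arrays belong to 1 group (siKlf4 EB5 ES cells, n = 2), the labels do not say whether the samples came from separate cultures, and the p-values below therefore measure only the spread between these samples, which may be technical. No ES cells without Klf4 siRNA and no array with the dyes exchanged were among the samples, so each ratio sets siKlf4 ES cells against cultured lines of other kinds, holds any dye effect and gives no effect of the siRNA. In bulk RNA, a larger share of cells in mitosis and more RNA per cell cannot be told apart.

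Klf4, the siRNA target, had log2 ratios over the reference of 0.43 and 0.59 (mean 0.51, or 0.31 with median centring), which do not test the knockdown because the pool is not its control. The ES cell label was checked on 9 measured markers, of which 8 were at least 2-fold higher than in the pool (median log2 ratio 4.03); Fgf4 stood at 0.00. The 5 fibroblast and 4 macrophage markers were each at least 2-fold lower, at medians of -3.81 and -2.84. Signals are given in intensity units above the local background. The limit of detection was the 95th percentile of 162 negative control spots, which on arrays 1 and 2 was 155 and 178 units for ES RNA and 40.9 and 58.4 units for reference RNA. Of the 38 members, 37 lay above it in both channels on both arrays, as did 81.1% of all probes, and 0 were saturated.

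As a set, the mitotic genes stood moderately above the reference. Of the 38 measured members, 33 were called higher in the siKlf4 ES cells and 4 lower, and 1 did not pass (limma, p adjusted by Benjamini-Hochberg over every probe, threshold 0.05, and the same sign on both arrays). Over all 21028 probes tested, 31.6% were called higher and 31.4% lower by this rule. The members' median log2 ratio was 0.51, with medians of 0.50 on array 1 and 0.58 on array 2, against -0.01 for all probes. Their quartiles were 0.26 and 0.92, and the whole set ran from -0.86 for Racgap1 to 1.61 for Ttk. At least 2-fold higher were 7 members, Ttk, Ccnb1, Ect2, Cenph, Bub1b, Bub1 and Kif20a, where 5.08% of all probes were at least 2-fold higher. Without background correction 2 of these, Ccnb1 (1.19) and Cenph (1.01), remained above 2-fold. Under other settings the count was 5 with median centring and 9 with a normexp offset of 0. At least 2-fold lower were 0 members, against 5.19% of all probes.

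Most members therefore differed from the pool by less than 2-fold. A small ratio needs care on these arrays, since spots without a target reached mean log2 ratios of up to 0.52 in size over both arrays. Such spots are dim, so their span does not measure the error of bright probes. That span is called the control band here. Of the 38 members, 18 lay within it. Beyond it and higher were 19 members (12.1% of all probes). Beyond it and lower was Racgap1, where 2273 of all 21028 probes were called lower beyond it. The arrays differed by a median of 0.08 in log2 ratio at a member, and by at most 0.28, at Spc25. All 34 members with a positive mean were positive on both arrays, and the 4 with a negative mean were negative on both. Over all probes, 43.9% were positive on both arrays.

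**Figure D1:**
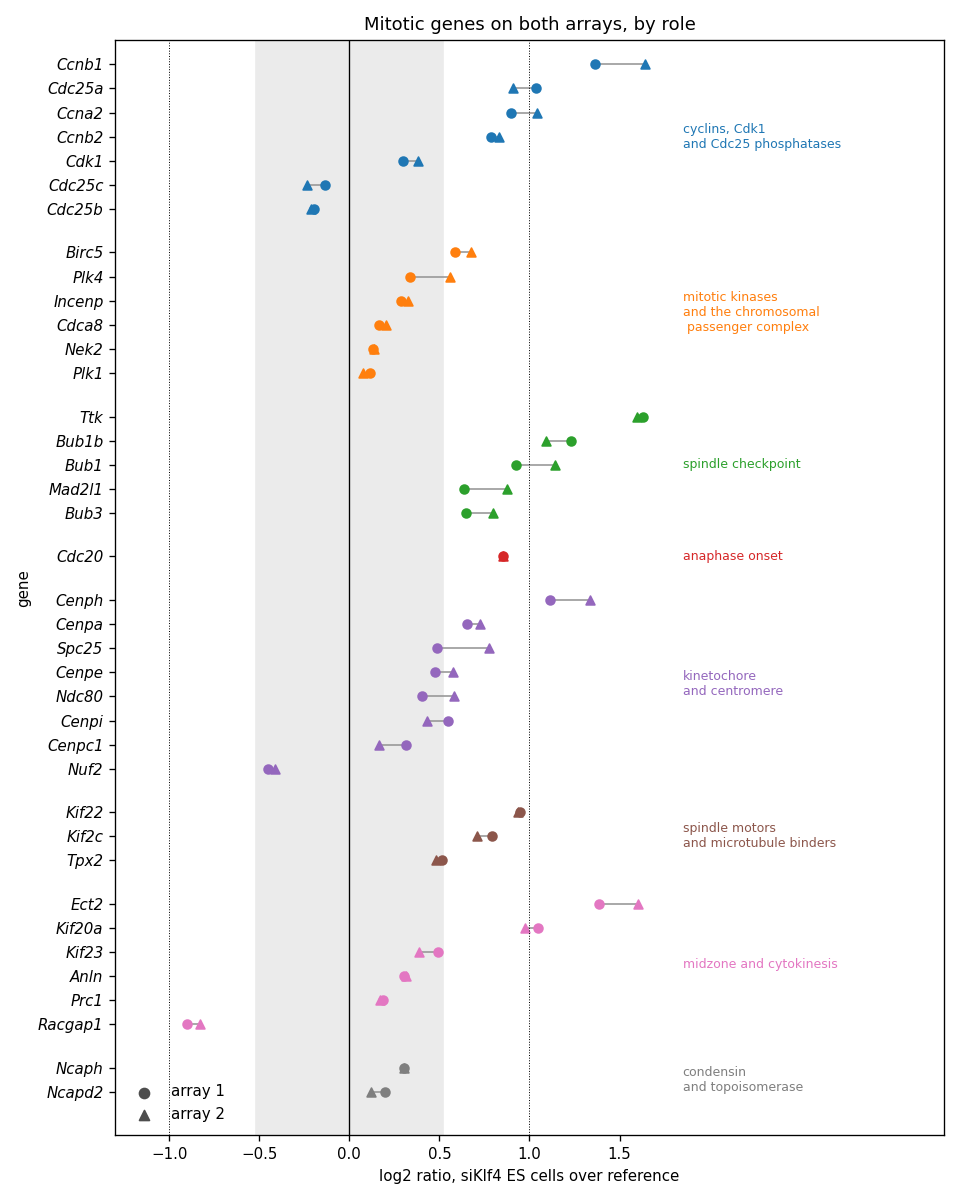
Each row is a measured gene, grouped by role, with its log2 ratio of siKlf4 ES cells over the reference on array 1 (circle) and array 2 (triangle). The grey control band, taken from means over both arrays, reaches 0.52 either way, and dotted lines mark 2-fold. The 5 checkpoint genes all lie to the right of the band on both arrays, and Racgap1 lies farthest to the left.

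**Figure D2:**
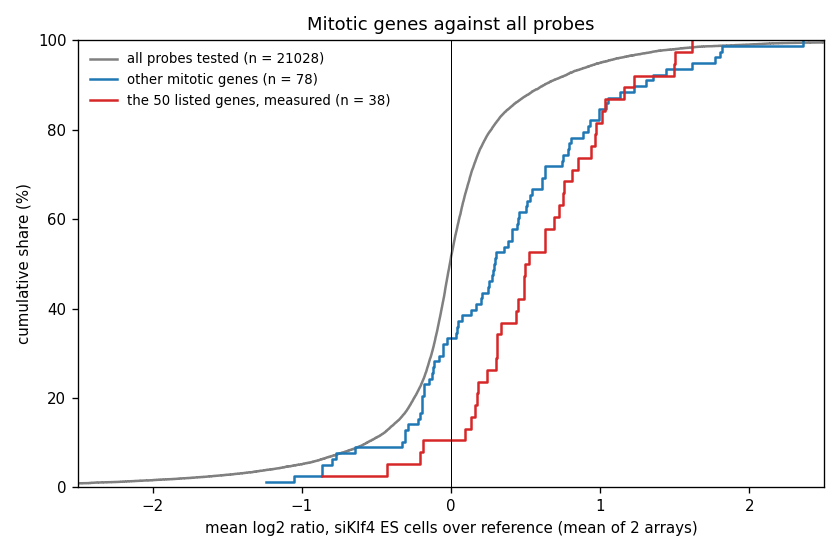
Cumulative share of genes or probes (vertical axis, percent) at or below a mean log2 ratio over 2 arrays (horizontal axis). Lines are for all 21028 probes, the 38 measured members and 78 other mitotic genes, of which 10 are transcription factors of late cell cycle genes. The members' line lies to the right of the line for all probes over most of its length, with medians of 0.51 and -0.01.

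The promoters of these genes share sequence that the list did not use. In a RefSeq table (GRCm38.p6) holding the 250 bases before and the first 50 bases from each annotated gene start, 42 of the 50 members had an entry; the first entry of a gene was used. A CHR was counted where TTTGAA or TTCGAA was found on either strand, and a CCAAT box where CCAAT was found on either strand; a CHR and a CCAAT box can share at most their edge base. A CHR was present for 29 of the 42 members (69.0%) and for 19.4% of 27025 genes. A CCAAT box was present for 33 (78.6%), against 37.9% of genes, and at least 2 CCAAT boxes for 19 (45.2%), against 12.2%. Both motifs were found for 26 members (61.9%) and for 7.70% of all genes. These are matches of letters in a fixed window, not sites shown to be bound. Among 62 CCAAT matches of the members 77.4% began no farther than 100 bases before the start, and 6 began after it. The median position of the CCAAT matches was -54.5, and that of the 39 CHR matches was -5. Positions were not counted for other genes, so these values have no comparison.

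The sequences of 8 members are printed from 150 bases before to 30 bases after the annotated start, 5′ to 3′ on the gene's strand, with CHR and CCAAT matches in capitals. They are the highest members with an entry, Ttk, Ccnb1 and Ect2; then Cdc20, Ccnb2 and Cdk1, which hold both motifs; and the lowest members with an entry, Racgap1 and Nuf2.
Ttk at chr9:83834539-83834718 (+ strand): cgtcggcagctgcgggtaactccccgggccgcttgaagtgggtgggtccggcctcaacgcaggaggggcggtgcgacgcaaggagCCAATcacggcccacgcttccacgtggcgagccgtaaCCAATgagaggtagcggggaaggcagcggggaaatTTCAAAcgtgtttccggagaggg
Ccnb1 at chr13:100786457-100786636 (- strand): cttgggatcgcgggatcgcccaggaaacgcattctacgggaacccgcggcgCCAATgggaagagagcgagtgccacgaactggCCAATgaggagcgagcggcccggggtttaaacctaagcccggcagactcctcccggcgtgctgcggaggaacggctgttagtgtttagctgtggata
Ect2 at chr3:27153849-27154028 (- strand): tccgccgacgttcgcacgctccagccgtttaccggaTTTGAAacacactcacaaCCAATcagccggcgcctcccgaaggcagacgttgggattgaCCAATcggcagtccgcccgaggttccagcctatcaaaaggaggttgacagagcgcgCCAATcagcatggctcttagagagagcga
Cdc20 at chr4:118437314-118437493 (- strand): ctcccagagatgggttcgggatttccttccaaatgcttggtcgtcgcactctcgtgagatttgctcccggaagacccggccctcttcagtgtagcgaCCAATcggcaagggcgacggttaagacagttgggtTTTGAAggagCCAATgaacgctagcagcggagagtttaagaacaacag
Ccnb2 at chr9:70421525-70421704 (- strand): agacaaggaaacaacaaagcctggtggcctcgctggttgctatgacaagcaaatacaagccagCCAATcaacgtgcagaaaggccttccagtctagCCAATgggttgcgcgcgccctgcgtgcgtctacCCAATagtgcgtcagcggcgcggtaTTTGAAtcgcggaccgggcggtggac
Cdk1 at chr10:69352883-69353062 (- strand): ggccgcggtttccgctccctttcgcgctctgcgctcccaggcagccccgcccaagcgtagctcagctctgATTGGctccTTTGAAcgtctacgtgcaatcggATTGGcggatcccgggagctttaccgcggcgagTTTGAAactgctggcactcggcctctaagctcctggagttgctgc
Racgap1 at chr15:99651627-99651806 (- strand): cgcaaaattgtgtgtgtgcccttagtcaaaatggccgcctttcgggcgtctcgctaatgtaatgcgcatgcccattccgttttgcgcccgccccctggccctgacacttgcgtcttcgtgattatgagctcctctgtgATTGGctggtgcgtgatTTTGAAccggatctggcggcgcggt
Nuf2 at chr1:169531435-169531614 (- strand): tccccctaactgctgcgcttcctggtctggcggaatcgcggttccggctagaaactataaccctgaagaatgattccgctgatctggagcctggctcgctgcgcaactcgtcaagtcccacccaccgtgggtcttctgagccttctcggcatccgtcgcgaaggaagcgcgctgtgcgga

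Counting the base before the start as -1, the Ccnb2 promoter had CCAAT boxes beginning at -87, -54 and -21 and CHR matches at -167, outside the stretch printed, and at 5. Ttk had CCAAT boxes at -65 and -28 and a CHR at 8, and Cdk1 had CCAAT boxes at -208, outside the stretch printed, -80 and -48 beside CHR matches at -71 and -15. Ccnb1 had CCAAT boxes at -99 and -67 and no CHR in the window. Racgap1, the lowest member, also held both motifs, a CCAAT box at -12 and a CHR at 6, whereas Nuf2 held neither. Of the 33 members with both a promoter entry and a probe, 18 held both motifs at a median log2 ratio of 0.66, and 5 held neither at a median of 0.45. The 15 with at least 2 CCAAT boxes ranged from 0.13 (Nek2) to 1.61 (Ttk) at a median of 0.81. For single motifs the medians lay closer together. The 21 members with a CHR had a median of 0.63 and the 12 without 0.51. The 25 with a CCAAT box had a median of 0.63 and the 8 without 0.47. The ranges overlap, and the differences between these medians were not tested.

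**Figure D3:**
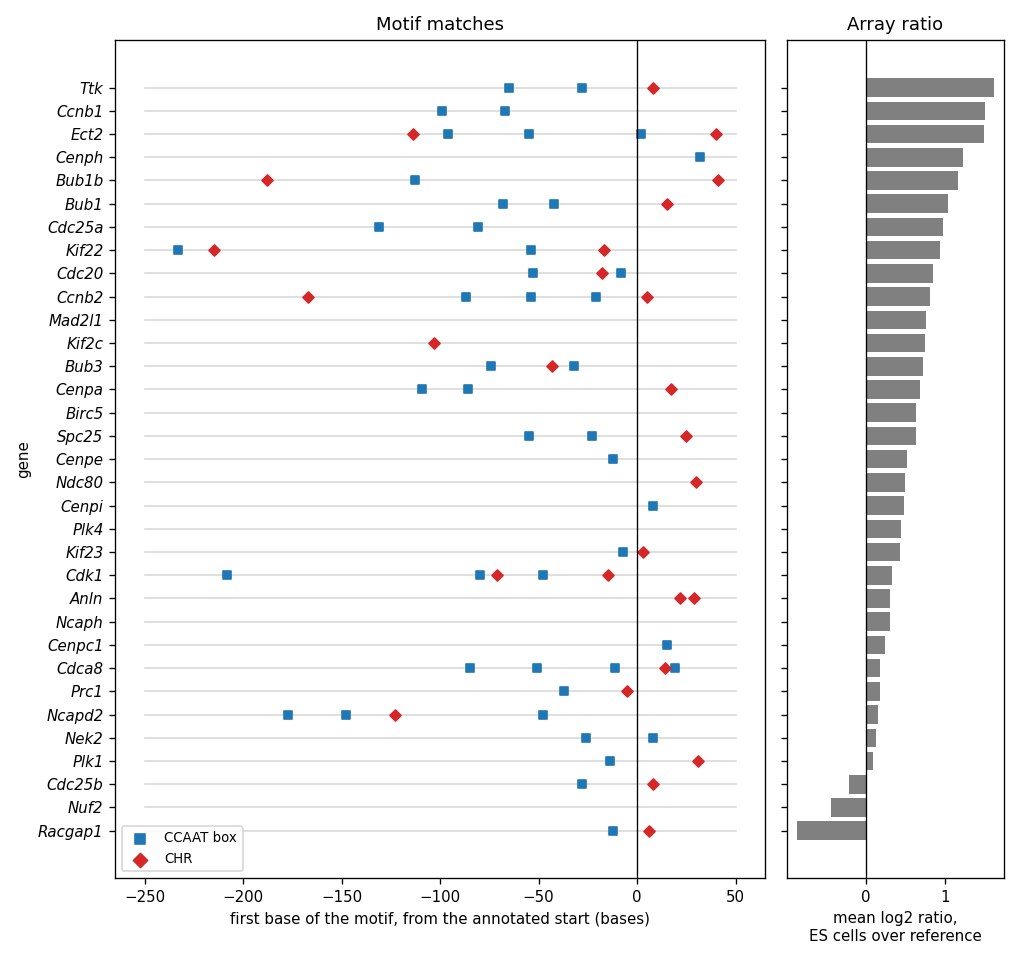
Left, the position of each CCAAT box (blue square) and CHR (red diamond) in the 300-base promoter window of the 33 measured members with an entry, in bases from the annotated start; right, the gene's mean log2 ratio over 2 arrays. Genes are ordered by ratio from Ttk (1.61) to Racgap1 (-0.86), and genes with both motifs stand at the top and at the bottom.

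The cyclins that start mitosis were higher, and the Cdc25 phosphatases, which activate Cdk1, lay on both sides of the pool. Of the 7 genes of this group 5 were higher and 2 lower, at a median of 0.81 (0.37 without background correction). Ccnb1, the B-type cyclin that partners Cdk1 at mitotic entry, had log2 ratios of 1.36 and 1.64 on arrays 1 and 2 (SD 0.20, n = 2), on average 2.83-fold (adjusted p = 2.32e-05). Its ES-channel signals were 1702 and 2658, and its reference signals 728 and 809. Ccnb1 thus stood above 2-fold on both arrays. Ccnb2, the other mitotic B-type cyclin, had ratios of 0.78 and 0.83, equal to 1.75-fold. Ccna2, the cyclin of S phase and early mitosis, stood at 0.90 and 1.04, equal to 1.96-fold.

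Cdk1 itself, the kinase these cyclins activate, differed less from the pool. Its ratios were 0.30 and 0.38, a mean of 0.34 ± 0.059 (SD, n = 2) or 1.26-fold (adjusted p = 0.00102). The mean lies within the control band, but that band comes from dim spots. The Cdk1 probe was bright, with ES-channel signals of 7900 and 10939 and reference signals of 6826 and 7470. Cdc25a, a phosphatase that acts from S phase onwards, was higher at 1.03 and 0.91, equal to 1.96-fold. Its mean moved both ways, to 0.30 without background correction, 1.04 with median centring and 1.35 with a normexp offset of 0. Its reference signals were 87.1 and 80.7, close to the detection limit. Cdc25b, which acts at the centrosome at mitotic entry, was lower at -0.20 and -0.21, but did not pass when arrays were median-centred rather than loess-normalised (-0.10), and it stood at -0.06 without background correction. Cdc25c, a phosphatase of mitotic entry, was lower at -0.13 and -0.23, but did not pass without background correction (-0.10) and stood at -0.42 with median centring. The 3 phosphatases therefore stood at 0.97, -0.21 and -0.18 on the same arrays.

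The group of mitotic kinases and the chromosomal passenger complex, which corrects faulty attachments and guides cytokinesis, lay close to the pool. This holds for the genes sorted into it. The kinase genes Ttk (1.61), Bub1 (1.03) and Cdk1 (0.34) were placed in other groups, and further kinases in the lists described below. Aurka and Aurkb of this group were not analysed here. Of 6 measured genes 5 were higher and 1 did not pass, at a median of 0.25 (0.15 without background correction), and 0 reached 2-fold. Birc5 (survivin), a subunit of the passenger complex, was the highest at 0.59 and 0.68, a mean of 0.63 ± 0.062 (SD, n = 2) or 1.55-fold (adjusted p = 8.23e-05). Plk4, the kinase of centriole duplication, stood at 0.34 and 0.56 (mean 0.22 with median centring), and Incenp, the scaffold of the complex, at 0.29 and 0.33. Incenp did not pass with median centring (0.11). These values show Birc5 as the sole member of the group beyond the control band.

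Plk1, a kinase needed from mitotic entry to cytokinesis, was the member that did not pass. Its ratios were 0.12 and 0.08, a mean of 0.10 ± 0.028 (SD, n = 2; adjusted p = 0.0699). The probe was dim, with ES-channel signals of 201 and 222 against 94.2 and 106 from the reference, and it passed as higher with median centring (0.23) and with the scanner software's processed signals (0.11). Nek2, a kinase of centrosome separation, was called higher at 0.13 and 0.14 but stood at -0.08 with median centring and did not pass with a normexp offset of 0 (0.12). The probe of Cdca8 (borealin), a further passenger subunit, was not above the detection limit in the ES channel on either array, at 147 and 173, and was above it in the reference on 1 array, so its ratio is not read here, although it is plotted, counts among the 33 called higher and enters the medians. Without Cdca8, 32 of 37 members were higher, the median of the members was 0.53 and that of the mitotic kinases and passenger genes 0.31.

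The spindle checkpoint was the group that stood highest among those with over 1 measured gene. Of the other kinetochore, centromere and checkpoint genes, listed apart, Mad1l1 stood at 0.28 and Mad2l1bp at 0.05, which did not pass. Zwilch of the same list stood at 1.82. All 5 members of the checkpoint group were higher, 3 of them at least 2-fold, at a median of 1.03, and each mean lay beyond the control band. The median was 0.74 without background correction and 0.80 with median centring. Ttk (Mps1), the kinase at the top of the checkpoint, had ratios of 1.63 and 1.60, a mean of 1.61 ± 0.024 (SD, n = 2) or 3.06-fold (adjusted p = 2.28e-06). Its ES-channel signals were 860 and 1017, and its reference signals 259 and 285. Ttk was the highest of all 38 members, with 98.4% of probes below it. Without background correction it stood at 0.94, under 2-fold.

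Bub1b (BubR1), which binds and inhibits Cdc20, was higher at 1.23 and 1.09, a mean of 1.16 or 2.24-fold. It stood under 2-fold without background correction (0.86) and with median centring (0.93). Bub1, the kinase that marks centromeric chromatin and recruits other checkpoint proteins, stood at 0.93 and 1.14, a mean of 1.03 or 2.05-fold. Array 1 thus lay under 2-fold and array 2 above it. The mean of Bub1 was 0.74 without background correction and 0.80 with median centring. Mad2l1 (Mad2), the other direct inhibitor of Cdc20, stood at 0.64 and 0.87, equal to 1.69-fold. Bub3, which brings Bub1 and BubR1 to kinetochores, stood at 0.65 and 0.80, equal to 1.65-fold, and at 0.41 without background correction. The checkpoint genes of this group were therefore higher on each array without overlap with 0.

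Cdc20, the activator of the anaphase-promoting complex and the target of the checkpoint, was also higher. Both of its ratios were 0.85, a mean of 0.85 ± 0.00090 (SD, n = 2) or 1.80-fold (adjusted p = 1.64e-05). With ES-channel signals of 18524 and 21564 against 10728 and 10636 from the reference, its value moved little without background correction (0.88). The other genes of anaphase onset in the list, the separase Espl1 and the securin Pttg1, were not analysed here.

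Kinetochore and centromere genes were higher by small margins, with 7 of 8 measured genes higher and 1 lower at a median of 0.51. Cenph, a subunit of the inner kinetochore, was the exception in size at 1.12 and 1.34, a mean of 1.23 ± 0.16 (SD, n = 2) or 2.34-fold (adjusted p = 2.78e-05), with ES-channel signals of 1875 and 2575 against 962 and 970 from the reference. Cenpa, the histone H3 variant of centromeres, stood at 0.65 and 0.73, equal to 1.61-fold. Cenpe, a kinetochore motor, stood at 0.48 and 0.58, and at 0.32 with median centring. Cenpi, which sits beside Cenph in the inner kinetochore, stood at 0.55 and 0.43, and at 0.20 without background correction. Cenpc1, which links centromeric chromatin to the outer kinetochore, stood at 0.31 and 0.17, and did not pass with median centring (0.01) or with a normexp offset of 0 (0.20).

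The measured subunits of the Ndc80 complex, which grips microtubules, did not lie on the same side. Spc25 was higher at 0.49 and 0.77, a mean of 0.63 ± 0.20 (SD, n = 2) or 1.55-fold (adjusted p = 0.000838). Ndc80 was higher at 0.40 and 0.58, equal to 1.41-fold, and stood at 0.29 without background correction and 0.33 with median centring. Nuf2 was lower at -0.45 and -0.41, a mean of -0.43 ± 0.027 (SD, n = 2), so that the reference was 1.35-fold higher (adjusted p = 0.000263). Its ES-channel signals were 1051 and 1322, and its reference signals 1597 and 1682, far above the detection limit. Nuf2 was lower with each setting tried for the scans, from -0.30 without background correction to -0.65 with median centring, although its ratio lay within the control band. Its promoter window was the one printed above without a match.

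The 3 measured genes for spindle motors and microtubule binders were all higher, and 0 reached 2-fold; their median was 0.75, or 0.46 without background correction. Kif22, a motor that pushes chromosome arms, stood at 0.95 and 0.93, a mean of 0.94 ± 0.0078 (SD, n = 2) or 1.92-fold (adjusted p = 1.18e-05). Kif2c (MCAK), which takes microtubules apart at centromeres, stood at 0.79 and 0.71, equal to 1.68-fold. Tpx2, the activator of Aurora A on the spindle, stood at 0.51 and 0.48. Without background correction Kif22 and Kif2c stood at 0.46 and 0.43.

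Genes of the spindle midzone and cytokinesis held the widest span of any group, from 1.49 to -0.86. Of the 6 genes 5 were higher, 2 of them at least 2-fold, and 1 was lower, at a median of 0.37 (0.20 with median centring). Ect2, the exchange factor that activates RhoA at the cleavage furrow, was higher at 1.39 and 1.60, a mean of 1.49 ± 0.15 (SD, n = 2) or 2.82-fold (adjusted p = 1.26e-05). Its ES-channel signals were 876 and 1197, and its reference signals 326 and 349, and without background correction it stood at 0.93. Racgap1, the partner that brings Ect2 to the midzone as part of centralspindlin, was lower at -0.90 and -0.83, a mean of -0.86 ± 0.051 (SD, n = 2), so that the reference was 1.82-fold higher (adjusted p = 2.15e-05). Its ES-channel signals were 4615 and 5695, and its reference signals 9149 and 8952, and under the other settings tried for the scans it ran from -0.76 to -0.93. These partners thus stood on opposite sides of the pool on both arrays.

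Kif23, the motor subunit of centralspindlin and the direct partner of Racgap1, was higher at 0.49 and 0.39, equal to 1.36-fold, and stood at 0.21 with median centring. Kif20a, a motor that carries the passenger complex to the midzone, stood at 1.05 and 0.98, a mean of 1.01 or 2.02-fold, at the edge of the 2-fold limit. The mean of Kif20a was 0.78 both without background correction and with median centring, under 2-fold. Anln (anillin), which ties the furrow to the contractile ring, stood at 0.30 and 0.32, and at 0.20 with median centring. Prc1, which bundles midzone microtubules, was called higher at 0.19 and 0.17, but its ratio was -0.03 with median centring. Apart from Ect2 and Kif20a, the higher genes of this group lay within the control band.

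Of the condensin and topoisomerase genes 2 of 6 were measured. Ncaph, the condensin subunit that closes the ring, stood at 0.30 and 0.31, a mean of 0.30 ± 0.0034 (SD, n = 2), and at 0.11 without background correction. Ncapd2, another condensin subunit, was called higher at 0.20 and 0.12, but stood at -0.07 with median centring and did not pass with a normexp offset of 0 (0.12). Both lay within the control band.

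**Figure D4:**
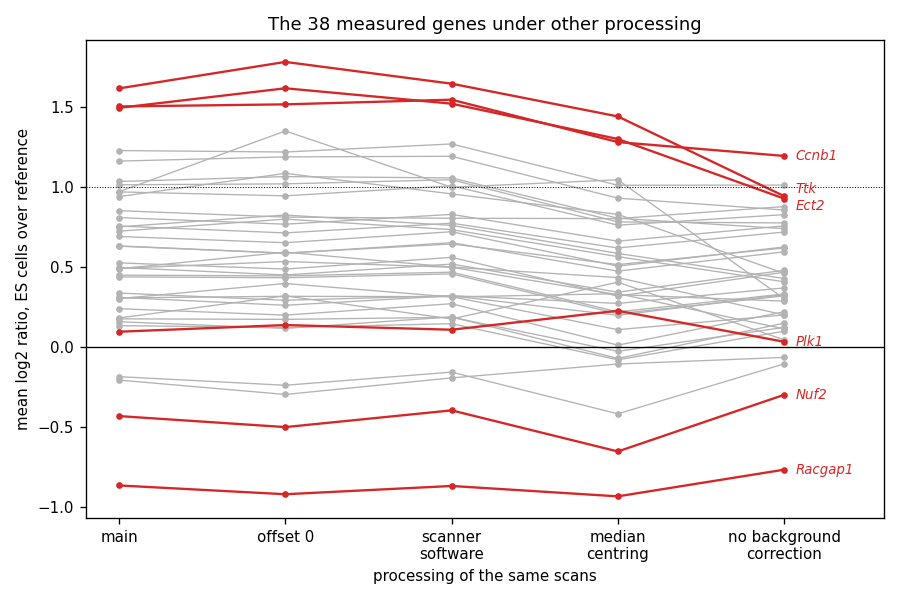
Mean log2 ratio over 2 arrays (vertical axis) of each measured gene under 5 ways of processing the same scans (horizontal axis; lines join the values of a gene and the dotted line is 2-fold), with 6 genes in red. Ttk falls from 1.61 to 0.94 and Ect2 from 1.49 to 0.93 without background correction, while Ccnb1 stays above 1 and Racgap1 below -0.7 throughout.

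Other genes of mitosis, and transcription factors of late cell cycle genes, were counted by the same rule in 7 lists that share no gene with the 50. Of 143 listed genes 78 were measured: 47 were higher, 20 lower and 11 did not pass, at a median of 0.29, of which 12 of the higher and 2 of the lower reached 2-fold. Over all probes 31.6% were called higher and 31.4% lower, and 5.08% and 5.19% reached 2-fold in these directions. Whether these lists differ from the 50 was not tested.

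Among the anaphase-promoting complex and its regulators 8 of 14 were higher, 3 lower and 3 did not pass (median 0.23, or 0.11 without background correction). The highest were regulators rather than core subunits. Fbxo5 (Emi1), an inhibitor of the complex, stood at 1.82 and 1.79 or 3.50-fold, and Ube2s, an enzyme that extends its ubiquitin chains, at 1.82 and 1.72 or 3.41-fold. Of 10 measured core subunits 5 were higher, 2 lower and 3 did not pass. Cdc23 was the highest of them at 0.92 (0.53 without background correction), and Cdc27 and Anapc2 were the lowest at -0.21 and -0.20. Cdc27 stood at -0.06 without background correction and did not pass with median centring (-0.04), where Anapc2 stood at -0.38. The Cdc27 probe was dim, with ES-channel signals of 165 and 198, close to the detection limit. Fzr1 (Cdh1), the activator that replaces Cdc20 late in mitosis, was lower at -0.14, and stood at -0.08 without background correction and -0.36 with median centring. Among 5 measured cohesin genes 3 were higher and 2 did not pass (median 0.80). The acetyltransferase gene Esco2 stood at 1.44, Cdca5 (sororin) at 1.14 and the ring subunit Smc3 at 0.80, whereas Smc1a and Rad21 were at 0.04 and -0.05 with opposite signs on the arrays. Without background correction Esco2 and Cdca5 stood at 0.72 and 0.54, under 2-fold, and with median centring Smc1a passed as lower (-0.18).

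Other kinetochore, centromere and checkpoint genes were higher in 12 of 18 cases and lower in 4, with 2 not passed (median 0.35). The highest were Zwilch, a subunit of the complex that brings dynein and Mad proteins to kinetochores, at 1.82 and 1.81 or 3.52-fold, Cenpp at 1.62 and Spdl1 (Spindly), a dynein adaptor, at 1.23. The lowest were Cenpb, which binds a centromeric DNA box, at -0.64, Dsn1 at -0.29 and Mad2l2 at -0.22. Without background correction these stood at -0.19, -0.14 and -0.12, and with median centring Mad2l2 stood at -0.42. The ES-channel signals of Cenpb were 179 and 192, close to the detection limit. Other spindle and centrosome genes were higher in 7 of 12 cases and lower in 3, with 2 not passed (median 0.41). Tacc2, the kinesin gene Kif18a and Stmn1 were highest at 1.36, 1.05 and 0.75, and Haus4, Nedd1 and Tubg1 lowest at -0.33, -0.19 and -0.13. Without background correction the median was 0.22, Kif18a stood at 0.49, and Nedd1 (-0.07) and Tubg1 (-0.07) did not pass; with median centring Tubg1 stood at -0.36.

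Of the other mitotic kinases and regulators 8 of 12 were higher and 4 lower (median 0.35). The higher ones include Ccnf, whose probe was not above the detection limit in the ES channel on either array; without it the median was 0.41. Wee1, the kinase that holds Cdk1 inactive, stood at 1.15 and 1.46 or 2.47-fold, Plk3 at 1.04 and Arpp19, which restrains a phosphatase opposing Cdk1, at 0.79. Plk2, a kinase related to Plk1, was lower at -1.26 and -1.22, so that the reference was 2.36-fold higher. The kinase genes Nek6 and Nek7 stood at -0.86 and -0.77. For Nek7 the ES-channel signals were 185 and 205, close to the detection limit. Without background correction the median was 0.18, Wee1, Plk3 and Plk2 stood at 0.60, 0.57 and -0.98, all under 2-fold, Arpp19 at 0.42, and Nek6 and Nek7 at -0.42 and -0.25. Among condensin II and cytokinesis genes 4 of 7 were higher, 1 lower and 2 did not pass (median 0.21). Shcbp1, Ncapd3 and Cdca3 had the highest ratios at 0.75, 0.53 and 0.45. Ncapd3 was above the detection limit in the reference on 1 array, stood at 0.13 without background correction, below Cdca3 at 0.34, and the median of the list without it was 0.05. Cdca3 stood at 0.22 with median centring. Arhgef2, Rhoa and Ncapg2 were lowest at -0.18, -0.12 and -0.12, of which Arhgef2 passed; with median centring all 3 passed, at -0.38, -0.30 and -0.24. Without background correction the median was 0.08.

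The transcription factors that act on late cell cycle promoters lay on both sides of the pool, with 5 of 10 higher and 5 lower. Their median of 0.03 changed sign without background correction (-0.0072) and with median centring (-0.060). Mybl2 (B-Myb), which activates such promoters together with the MuvB complex, was the highest of all these mitotic genes. Its ratios were 2.45 and 2.27, a mean of 2.36 ± 0.13 (SD, n = 2) or 5.13-fold (adjusted p = 2.17e-06), with ES-channel signals of 1557 and 1664 against 286 and 305 from the reference. E2f4 stood at 0.93 and the CCAAT-binding subunit gene Nfyc at 0.61. The pocket protein genes, whose products repress cell cycle promoters, were lower: Rbl1 (p107) at -1.16 and -0.95, Rbl2 (p130) at -0.87 and -0.85 and Rb1 at -0.86 and -0.73. Without background correction the pocket protein genes stood at -0.67, -0.34 and -0.39, and E2f4 and Mybl2 at 0.60 and 1.56. Foxm1, another activator of late cell cycle genes, was lower at -0.14 and -0.25 (mean -0.09 without background correction and -0.30 with median centring). E2f1 was lower at -0.31 and -0.30. Foxm1, E2f1, Mad1l1 and Mad2l1bp lie outside the rule for named genes and were added after their values were seen.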

How the data were processed

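RNA of siKlf4 EB5 ES cells (Cy3) and a common reference (Cy5) was hybridised to 2 arrays. Per the file headers, the authors used Agilent Feature Extraction A.7.5.1 (the tool is also in the submitters' processing notes). The deposited files hold intensity values as scanned and after the software's local background subtraction and dye normalization. Their log10 ratio is red over green. A deposited table for the series gives log10 values per probe. The sources used here do not give how these were computed; 99.6% of them match, within 2e-04, the average log10 red processed signal less the log10 ratio of the array, so they hold the software's ratios, uncentred (column medians 2.92 and 2.92).

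Spot mean signals were corrected by normexp (offset 50) and normalised by loess within arrays in limma 3.58.1 (R 4.3.3), with control spots at weight 0. Outlier spots removed 24 of 21052 gene probes. Log2 ratios, ES cells over reference, were tested against 0 with lmFit and eBayes (1 residual and 4.24 prior degrees of freedom); the fit was tested on simulated data. Probes were named by RefSeq accession (GRCm38.p6 table): 10422 received a symbol and 10630 none. Where a gene had several probes, the brightest stood for it. Named were all measured members, Klf4 and the 3 highest and 3 lowest genes of each other list. The members, lists and role groups were chosen with earlier results of these data known. Alternatives were no background correction, offset 0, median centring, processed signals, probes above the negative controls only, all probes of a gene averaged, and single arrays. The number of arrays limits the precision.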

Additional observations from a re-analysis of the deposited data

How the results depend on the processing

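Counts of members called higher ran from 29 (median centring) to 34 (processed signals) against 33, and counts called lower from 3 to 4. Without background correction 2 members (Ccnb1 and Cenph) were at least 2-fold higher in place of 7, and 510 and 467 of all probes were at least 2-fold higher and lower in place of 1068 and 1092; the cause was not tested. Members at least 2-fold higher numbered 5 with median centring, 8 with processed signals and 9 with offset 0. Counted only beyond every negative control spot, 19 members were higher. The members' median of 0.51 became 0.39 without background correction and 0.42 with median centring, and was 0.50 and 0.58 on single arrays, where no test is possible. Averaging all probes of a gene changed nothing for the members, each with 1 probe. With median centring Prc1 (-0.026), Nek2 (-0.079) and Ncapd2 (-0.070) changed sign without passing. The median of the late cell cycle transcription factors also changed sign (-0.060, and -0.0072 without background correction), as did Smc1a with median centring (-0.18, past the threshold there); the cause was not tested. For the other 35 members the sign of the mean held under each of these settings. The dim probes of Plk1, Cdc25a, Cdc25b and Ncaph limit what their ratios show. No slide or scan block could be fitted, since each array is its own, and all p-values rest on 2 arrays.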

Other observations

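Promoter motifs were also counted for the other mitotic genes. Of 63 measured genes of those lists with a promoter entry, 17 (27.0%) held a CHR and 24 (38.1%) a CCAAT box, against 63.6% and 75.8% of the 33 measured members with an entry and 16.1% and 38.8% of all genes with a probe and an entry; the differences were not tested. Over all 8040 genes with a probe and a promoter entry, the 527 that held both motifs had a median log2 ratio of 0.04 and the 4158 that held neither -0.01.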
